A study of Drosophila melanogaster with 2 samples.

Results

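Dense clusters of accessible sites are stretches of the genome where many open chromatin sites lie side by side. They were found in an ATAC-seq peak list of Drosophila S2 cells, an assay that marks open DNA by where the transposase Tn5 can insert. A site, or summit, was a member when 12 or more summits, itself included, lay within 5 kb to either side on the same chromosome, and members less than 10 kb apart formed 1 cluster. Of 35535 summits 2844 were members, or 8.0%, and they formed 381 clusters. The positions of the summits chose the members, so crowding and spacing are described without a test, and so are the heights, which come from the same peak calls.

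The series had 1 group, S2 cells grown at 25°C without a named treatment or genetic change, with 2 libraries of 2000000 cells each and 12 cycles of PCR. S2 was derived from embryos and resembles hemocytes, the blood cells of the fly, so it stands for 1 long-cultured line and not for a tissue. Both libraries are represented by 1 peak list, so no site had a value per library or a replicate error, and whether the libraries came from separate cultures is not given in the sources used here. Positions are in dm6 and are counted from 1.

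Clusters of this kind are a known feature of genes under elaborate control. A promoter is usually 1 open site at the start of a gene, while enhancers, the distal elements that set when and where a gene is transcribed, are separate open sites that can lie in introns or beyond the gene. Genes for transcription factors and signalling proteins often have many enhancers, and very dense groups of them are called super-enhancers or stretch enhancers in mammals. Housekeeping genes, by contrast, mostly have compact promoters. The data here show accessibility only and do not tell whether a site acts as an enhancer.

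The height of a site was read in 3 ways. The pileup is the number of overlapping fragments at the summit, the background is the number the peak caller expected there, and the fold is their ratio with a pseudocount of 1 in each, as the authors deposited it. Pileup and background were recovered from the deposited fold and −log10 p for 35535 of 35535 summits. Peak names in the list carry the word fragments, from which the unit is taken. At the median pileup of members, 96, the counting error is 10.2%. Ranges in brackets after a single pileup are exact Poisson limits at 95%, which hold counting error and nothing else.

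**Figure D1:**
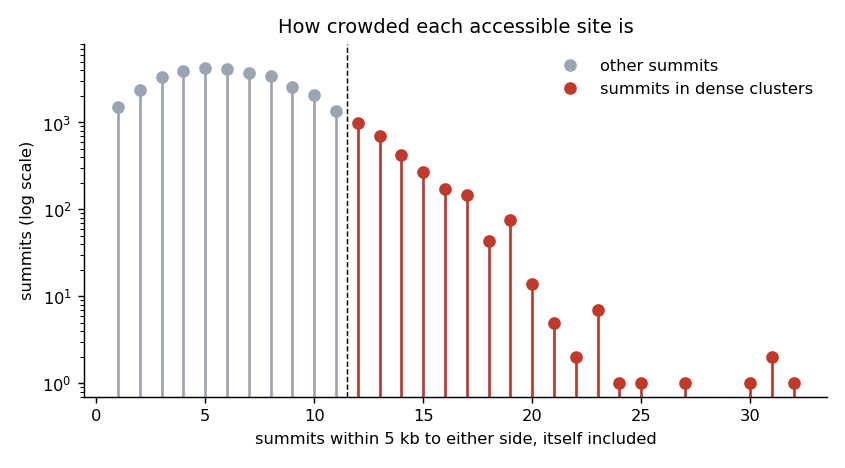
Number of summits (log scale) against the number of summits within 5 kb to either side, itself included. Grey points are the other summits and red points the members, beginning at 12; the counts fall from 985 summits with 12 to 1 summit with 32.

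Most summits had far fewer neighbours. The windows of 5 kb to either side held a median of 6 summits, and the most crowded summit had 32, at the Rh5 locus on 2L. Just inside the threshold lay 985 summits with 12, and just outside it 1344 with 11. Their values were close, with a median pileup of 83 and 80, a median fold of 3.36 and 3.39, and 15.5% and 16.5% at a gene end. The threshold therefore cuts a continuous range and marks no gap in it.

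The clusters were uneven in size. Of the 381 clusters 67 had a single member, 122 had 2 to 5, 84 had 6 to 11, and 108 had 12 or more. Those 108 clusters held 1697 members, or 59.7%. A cluster had a median of 6 members (quartiles 2 and 12) and a median span of 3.06 kb from first to last member (quartiles 0.437 and 5.16 kb), and together the spans covered 1.45 Mb. The 15 clusters with most members held 405 of them, or 14.2%.

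Members lay inside genes more often than other summits, and away from gene ends. Within 250 bp of either annotated end of a gene lay 396 of 2844 members, or 13.9% (95% exact interval 12.7 to 15.3%), against 30.4% of the 32691 other summits (29.9 to 30.9%). Over all summits that share was 29.1%. Farther inside a gene lay 72.3% of members and 55.3% of the others, and between genes 13.7% and 14.3%. Members of a cluster share a locus and are not independent, so these intervals are too narrow and no test was made. Among summits at or above the median fold alone the direction turned, with 48.3% of 29 members at gene ends against 40.4% of the others. The 14 at gene ends were all in 2 clusters over tRNA genes. The share at gene ends was lower among members on each of the 5 large arms, from 11.3% on 2L to 18.1% on 2R, where all summits had 27.9% to 31.2%.

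The genes around members were long. A protein-coding gene held 76.9% of members and 66.8% of the others, with a median host gene of 25.3 kb and 17.8 kb. Genes of 20 kb or more held 45.5% of all members and 31.3% of all other summits. Inside genes of 20 to 50 kb the share at a gene end was 7.0% for members and 7.46% for the others, which are close. Inside genes of 5 to 20 kb it was 5.42% and 16.2%, and inside genes under 5 kb 29.5% and 50.3%. Among summits inside protein-coding genes, the difference in gene-end shares was thus seen in short genes and hardly in long ones. Summits outside protein-coding genes, some of them also at gene ends, were not part of this breakdown.

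**Figure D2:**
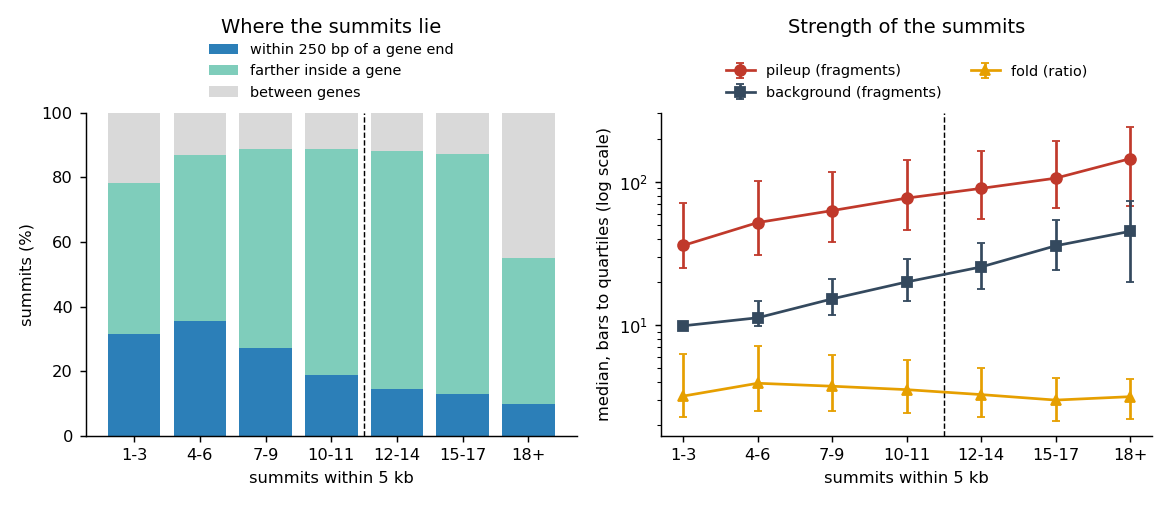
Summits grouped by how many lie within 5 kb. The left panel stacks the percentage at a gene end, farther inside a gene and between genes; the right panel gives median pileup, background (both in fragments) and fold with bars to the quartiles on a log scale. Right of the dashed line are members; gene-end shares fall from 35.4% at 4 to 6 summits to 9.80% at 18 or more, and pileup and background rise together while the fold stays near 3 to 4.

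Crowding went with height, but the deposited fold did not show it. The median pileup was 96 at members (quartiles 57 and 174) and 53 at the other summits (32 and 103), a ratio of 1.81. The median background was 27.9 against 12.0, a ratio of 2.33, so the median fold was lower at members, 3.20 against 3.67. A summit is called against its background, so the lowest pileup that can be called is higher where the background is. From summits with 1 to 3 within 5 kb to those with 18 or more, the median pileup went from 36 to 145 and the median background from 9.91 to 45.2, while the median fold went from 3.21 to 3.18. The top 25.2% of all summits by pileup held 44.6% of members and 23.5% of the others. The highest fold of any member was 17.8, against 103 in the whole list.

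The background was higher in the clusters than around them. It is a local value of the peak caller, so peaks packed close together can raise it by construction, and the contrasts here are descriptions only. It was at least 2 times the genome-wide value of 9.91 at 73.2% of members and 17.4% of the others. In 41 clusters with 483 members the median background was at least 5 times that value. At those members it had a median of 64.8, but at other summits 10 to 50 kb outside the same clusters it was 18.2 (quartiles 12.5 and 30.1, 1364 summits). Around the other 340 clusters it was 24.6 at members and 13 outside. Copy number, mappability and the caller's window were not measured, and their part in the raised background was not tested.

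Among summits with 18 or more within 5 kb, a few clusters held most of those between genes. Of 153 such summits in 22 clusters 69 lay between genes, or 45.1%. Of these 30 were at Rh5 and 19 in a gene-free cluster on 2L, and without both clusters the share was 19.2% of 104 summits, with 66.3% inside genes and 14.4% at gene ends. Another 8 were at E(spl)mbeta-HLH and 7 on X beside CG4004.

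Many members were parts of wide open intervals. An interval is 1 called peak, which can hold several summits, and 62.3% of members shared theirs with another summit (60.5 to 64.1%), against 32.6% of the others. The median interval width, counted once per summit, was 284 bp for members and 161 bp for the others. Neighbouring members in the same interval were a median of 119 bp apart (quartiles 88.3 and 167), close to the 120 bp of other summits. Between intervals the median gap was 563 bp for members and 1464 bp for the others, a difference the rule itself makes. When every interval counted once, by its summit of highest fold, only 86 members in 32 clusters were left. Most dense clusters thus reached 12 summits through wide intervals that the caller had subdivided.

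Within a cluster the sites differed in height while the background varied little. Among clusters with 6 or more members, which held 84.0% of all members, the median within-cluster SD of the log2 pileup was 0.69 and the SD between cluster medians was 0.87. For the log2 background these were 0.08 and 0.81. Close sites largely share the caller's local background by construction, so the 0.08 is no result about the clusters. The highest pileup in a cluster was a median of 2.33 times the cluster's own median (range 1.09 to 7.94). That strongest site was inside a gene in 141 clusters, at a gene end in 32 (16.7%) and between genes in 19, while 12.9% of all members of these clusters were at gene ends. Intervals covered a median of 27.9% of a cluster's span (quartiles 21.7 and 35.5%).

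**Figure D3:**
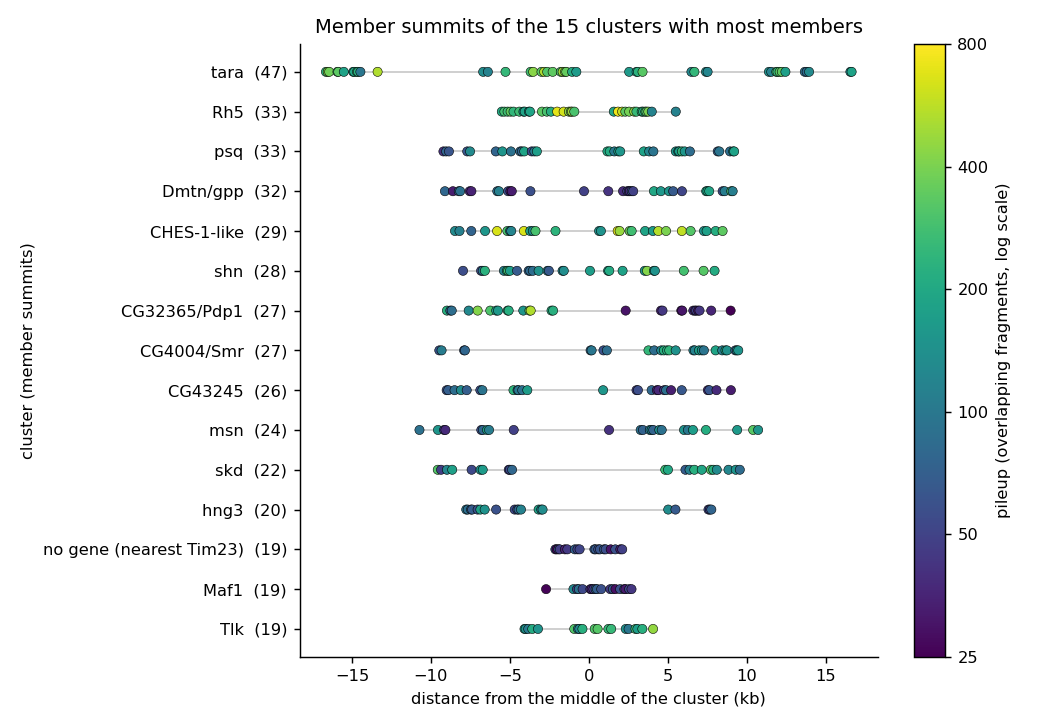
Member summits of the 15 clusters with most members, placed by distance in kb from the middle of each cluster and coloured by pileup (log scale); member counts are in brackets. The tara cluster spans 33.3 kb with 47 members, and the gene-free 2L cluster packs 19 into 4.24 kb at pileups of 27 to 71.

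The largest cluster lay at tara, which encodes a SERTA-domain protein that interacts genetically with trithorax-group genes. It ran from 3R 16221526 to 16254825 with 47 members, of which 35 were inside the 34.7 kb gene (16225651 to 16260329), and it began beyond the gene's left end. Pileups ranged from 82 to 529 with a median of 228, over a median background of 56.5. The highest pileup, 529 (485 to 576), was inside the gene at 16235348, and the highest fold, 9.25, was outside it at 16224797, 854 bp beyond the left end. With the 13 members between 16205579 and 16210536, over 4 lncRNA genes next to mtSSB, and 2 members at gish, 62 members lay within 72.2 kb. No other cluster had more than 33 members.

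Next to it in member number were Rh5 and psq, with 33 each. At the rhodopsin gene Rh5, a photoreceptor gene, 33 members lay in 11 kb (2L 12003071 to 12014091), and 32 of them were between genes. Pileups there ranged from 117 to 728 (median 283), and the background from 78.7 to 160, so the highest fold was only 5.46, at 12010434. The 1.68 kb gene itself held 0 members and had no peak within 250 bp of either end. The 1 member at a gene end, at 12014091, was at an end of another gene. At psq, which encodes a BTB-domain protein that binds GAGA sequences, 33 members lay in 18.4 kb with pileups from 41 to 252 (median 122) and another 12 farther along the same 59.4 kb gene (59 to 382). The neighbouring gene lola, also a BTB transcription factor gene, had 14 members at lower pileups (32 to 75), and these 3 clusters lay within 86.4 kb on 2R.

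The next 4 clusters by member number had 27 to 32 members. The Dmtn cluster on 3R had 32 members, 20 in Dmtn and 10 in gpp, the gene of the H3K79 methyltransferase Dot1. Its pileups were mostly low, from 31 to 287 with a median of 62. CHES-1-like, a forkhead transcription factor gene on X, had 29 members with pileups from 75 to 700 (median 214), and 28 of them were in the gene. In shn, a zinc-finger gene that acts in Dpp signalling, 28 of 28 members were inside the gene (55 to 423, median 152), and no peak lay at either end of it. A cluster of 27 members on 3L spanned CG32365 and Pdp1, a PAR-domain bZIP gene of the clock, with pileups from 25 to 526. The 15 members up to 7868987 had pileups of 70 or more, the highest at a gene end, and the 12 from 7873585 on had 49 or less.

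The other clusters of the 15 were more mixed. Pileup ranges in brackets here are those of the whole cluster. On X 27 members ran across CG4004, Smr (a corepressor of nuclear receptors) and lncRNA genes, with 4 members each in Smr and CG4004 and pileups from 60 to 248. Near CG43245 on 3L 16 of 26 members were between genes (33 to 239). The kinase gene msn of the JNK pathway held 19 of the 24 members of its cluster (38 to 325). Inside msn the highest pileup was 183, and the 325, at 2590416, was in the gene dos. The gene skd, of the Mediator subunit Med13, held 19 of 22 (46 to 318), with a fold of 12.1 at 21009034. At hng3 on 3L 16 of 20 were between genes (49 to 181). Tlk, the gene of Tousled-like kinase on X, had 19 members with pileups from 96 to 454 and 19 more in another cluster, all 38 inside the 69.8 kb gene.

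A pair of the 15, near the right end of the 2L assembly and toward the left end of that of 2R, had low pileups over a low background. The first, at 2L 23368614 to 23372848, overlapped no gene of the table, and the nearest protein-coding gene, Tim23, was 55036 bp away. Its 19 members had pileups from 27 to 71 (median 57) over a background of 12.0 to 12.6, and intervals covered 54.8% of the span. The second, at 2R 1511139 to 1516551, had 18 of 19 members in Maf1, which encodes a repressor of RNA polymerase III, with pileups from 26 to 128 (median 52) over a background of 13.6 to 15.1. Other clusters had such low values too, for example Mad, with 13 members at pileups from 29 to 115 over a background of 13.2 to 15.7. How reads of repeated sequence were treated is not given in the sources used here, and its part in these 2 clusters was not tested.

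**Figure D4:**
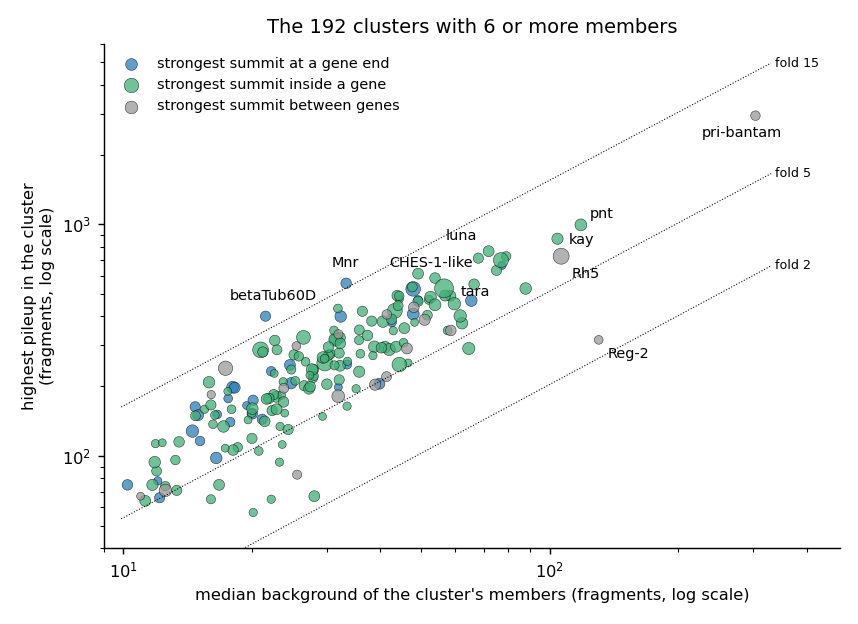
Highest pileup against median background (both in fragments, log scales) for the clusters with 6 or more members; the area of a point grows with the member count and the colour gives where the strongest site lies. Dotted lines mark folds of 2, 5 and 15. Pileup and background rise together, pnt and kay lie near 900 to 1000 fragments and the cluster beside the bantam precursor gene at 2942.

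The strongest site in any cluster was beside the precursor gene of bantam, a microRNA that promotes growth and blocks cell death. In 10 members from 3L 626454 to 630894 the pileup ranged from 352 to 2942 (median 655) over a background of 286 to 328. The highest, 2942 (2837 to 3050) at 628173, lay 262 bp outside the left end of the precursor gene lncRNA:CR43334 with a fold of 9.94, and 2367 was reached at 628031. The next cluster to the left, 8 members near Reg-2, had pileups from 124 to 317 and a highest fold of 2.39. These belonged to a run of 6 clusters with 68 members in 166 kb, each less than 50 kb from the next, and no other run had more than 4 clusters.

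Strong sites in high background were seen in several regulator genes. The pnt cluster, in the ETS transcription factor gene of the EGFR pathway, had 17 members with pileups from 172 to 994 (933 to 1058 at the highest) and a median of 388. In kay, the Fos gene, 15 members ranged from 163 to 866 (median 494). The HmgZ cluster, over HMG-box genes for DNA-bending proteins, had 4 members from 775 to 955, all inside both HmgZ and HmgD, whose spans overlap. In luna, a KLF-family gene of 138 kb, 14 members ranged from 72 to 765 and another 9 from 62 to 472. The Brahma complex gene osa had 12 members from 103 to 632, and Hipk, a kinase gene, 10 from 107 to 727. Each of these clusters had a median background of at least 5 times the genome-wide value.

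The 5 clusters with the highest folds had other shapes. At betaTub60D, a beta-tubulin gene, the site at 2R 24305773, 108 bp beyond the gene's left end, had a pileup of 401 (363 to 442) and a fold of 17.8, while the next of the 12 members had a pileup of 71. At Mnr on X 3 neighbouring sites at the gene's right end had pileups of 535, 556 (511 to 604) and 442, with a highest fold of 16.3, and the cluster's median was 94. The next folds were inside genes, 15.1 in Lmpt, 13.6 in pdgy and 13.2 in Men. Lmpt had only 2 members, with pileups of 275 and 272, and Men had 2 high ones, 433 and 369, among 8.

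Most genes overlapped by clusters had a peak at an end. Of 13946 protein-coding genes 403 were overlapped by a cluster, or 2.89%, and 371 of these (92.1%) were open within 250 bp of an end, where 60.4% of all protein-coding genes were. Overlapped genes had a median length of 14.7 kb and all genes 2.16 kb. They were picked by peaks over them, and no share matched for length was computed, so the higher share with a peak at an end is a description only. The share overlapped went up with length: 1.00% of genes under 5 kb, 5.63% of those of 5 to 20 kb and 15.6% of those of 20 kb or more were overlapped. At least 6 members lay inside 149 genes. Of those, 12 had no peak at an end, among them shn with 28 members, Eip78C and the courtship gene fru with 16 each, eIF5B with 15, sd with 12, the trithorax-group gene tna with 11 and spi with 10. Strand and transcripts were not used here, so internal starts of these genes could not be told from other internal sites.

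Some genes carried several separate clusters. A cluster with members in protein-coding genes was assigned to the gene that held the largest number of them, with 1 gene taken in a tie, and of 308 such genes 16 led more than 1 cluster. EcR, the ecdysone receptor gene, led 3 clusters with 34 members inside its 81.2 kb. The others with 20 or more members inside were Tlk and psq (38 each), ush (34), Raf (29), CG43739 (23), luna (23), sli (21) and heca (20), each with 2 clusters. In ush, the FOG-family cofactor of GATA factors in blood cells, 1 cluster had 18 members with pileups from 96 to 291 and the other 16 from 120 to 528. In Raf, the MAP kinase kinase kinase gene, the clusters had 12 members from 97 to 714 and 17 from 75 to 449, and 4 of the latter were also inside Ilp6, an insulin-like peptide gene that lies within Raf's span.

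**Figure D5:**
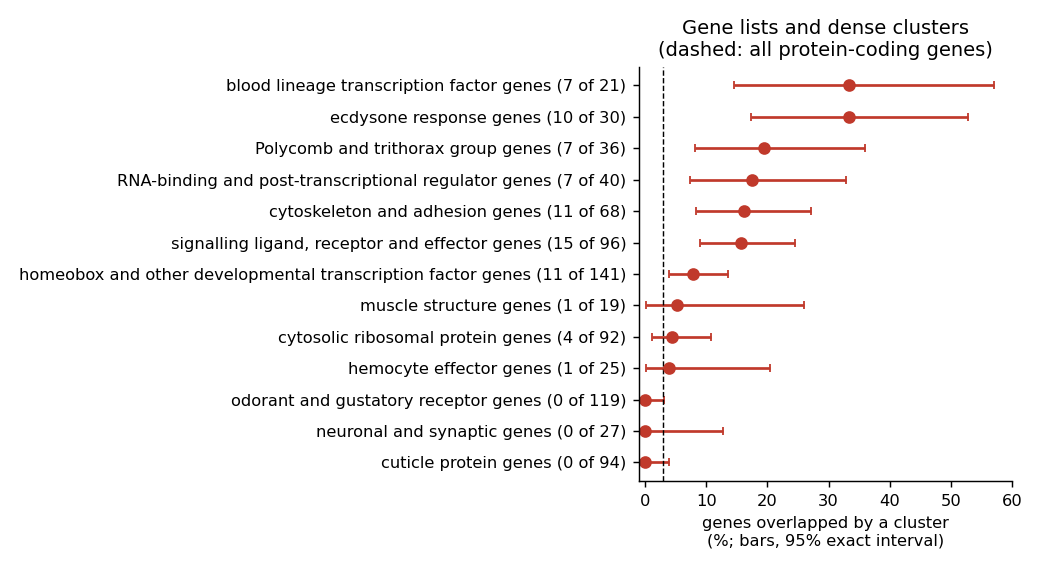
Percentage of the genes of 13 lists overlapped by a dense cluster, with exact 95% intervals; counts are in brackets. The dashed line is the 2.89% of all protein-coding genes; blood lineage and ecdysone response genes are at 33.3%, and receptor, cuticle and neuronal genes at 0%.

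Gene groups differed widely in how many members clusters reached. The lists were drawn up with earlier results of these data known. They also share genes, among them pnt, Stat92E, bowl, psq, Trl and br, so the same cluster can count in several lists. Blood lineage transcription factor genes had 7 of 21 overlapped (33.3%, 14.6 to 57.0%), where 2.89% of all protein-coding genes were. These were ush (34 members inside), pnt (17), kay (15), bowl (13), Stat92E (11), and zfh1 and zfh2 with 1 each. In Stat92E, the JAK/STAT transcription factor gene, 14 members of the cluster had pileups from 30 to 159. Long genes are overlapped more often, and of the 10 listed genes of 20 kb or more 5 were overlapped, where 15.6% of all such genes were. The core hemocyte factor gene srp was not overlapped and had 9 summits inside.

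Ecdysone response genes, which carry out the steroid hormone's programme, had 10 of 30 overlapped (33.3%, 17.3 to 52.8%). EcR led with 34 members inside, followed by the nuclear receptor gene Eip78C (16; pileups 32 to 160), the ETS gene Eip74EF (14; 105 to 492), br (13; 60 to 293), crol (12; cluster of 13 at 99 to 491), Kr-h1 (11) and ImpL2 (10), whose product binds insulin-like peptides. Hr4 had 6, the coactivator gene tai 3 and Eip93F 1. Of the listed genes of 20 kb or more 7 of 15 were overlapped (46.7%) and of those of 5 to 20 kb 3 of 6, where all genes of these lengths had 15.6% and 5.63%. S2 cells are known to respond to ecdysone, and no hormone treatment is named in the labels.

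Signalling genes had 15 of 96 overlapped (15.6%, 9.02 to 24.5%), where 2.89% of all protein-coding genes were. Their median length was 13.6 kb, against 2.16 kb. By length the share was 24.1% at 20 kb or more and 15.9% at 5 to 20 kb, against 15.6% and 5.63% of all such genes. The members inside were 17 in pnt, 16 in nkd (a Wnt antagonist), 13 in Mad (the Dpp pathway Smad), 11 in Stat92E, 10 each in spi (an EGFR ligand) and foxo, and 9 in puc (the JNK phosphatase). Their heights were unequal: the spi cluster had pileups from 87 to 405, whereas the larger nkd cluster had 21 to 64, foxo 25 to 74 and Mad 29 to 115. Members inside hep, kibra, kuz and upd3 numbered 3 or 4, and inside aop, Notum and InR 1 each. At E(spl)mbeta-HLH, a Notch target, a cluster of 16 overlapped the gene without a member inside it.

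Polycomb and trithorax group genes had 7 of 36 overlapped (19.4%, 8.19 to 36.0%), against 2.89% of all protein-coding genes: psq, skd, Trl, osa, tna, ph-p and Psc. Trl, the 13.1 kb gene of GAGA factor, had 16 members with pileups from 110 to 374. The PRC1 gene ph-p had 6 members of a cluster of 16 (54 to 266), and Psc 1. The PRC2 methyltransferase gene E(z) was not overlapped. Of the listed genes of 20 kb or more 4 of 7 were overlapped, where 15.6% of all such genes were.

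Cytoskeleton and adhesion genes had 11 of 68 overlapped (16.2%, 8.36 to 27.1%), led by sli, the guidance ligand gene (21 members), ena (13) and Moe, the moesin gene (12). RNA-binding and post-transcriptional regulator genes had 7 of 40 (17.5%, 7.34 to 32.8%), led by brat with 15 members, shep with 13 (39 to 586) and pum with 12 (61 to 421). Against 2.89% of all protein-coding genes both shares are high, but these genes are long, with medians of 19.7 kb and 16.0 kb. At 5 to 20 kb the shares were 4.0% and 6.67%, near the 5.63% of all such genes, and at 20 kb or more 27.3% and 31.6%, against 15.6%. Among homeobox and other developmental transcription factor genes the share was 11 of 141 (7.80%, 3.96 to 13.5%). The BTB genes psq, Trl, fru, chinmo, lola and br, the zinc-finger gene bowl and the TEAD gene sd had 12 to 38 members each, the homeobox genes ct and ap 7 and 3, and the BTB gene bab1 1. Among its genes of 20 kb or more 19.1% were overlapped, close to the 15.6% of all genes of that length.

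The remaining lists had few or no overlapped genes. Genes for cytosolic ribosomal proteins, which are all under 5 kb, had 4 of 92 overlapped (4.35%, 1.20 to 10.8%), where 1.00% of all genes of that length were, and held 1 member in all. Hemocyte effector genes, for example those of phagocytosis and the extracellular matrix, had 1 of 25 overlapped, or 4.0% (vkg, with 4 members). Muscle structure genes had 1 of 19, or 5.26% (Tm1, with 2). The exact intervals of both include the 2.89% of all protein-coding genes. Odorant and gustatory receptor genes had 0 of 119 (up to 3.05%) and cuticle protein genes 0 of 94 (up to 3.85%). Of the receptor genes 117 and of the cuticle genes 87 were under 5 kb, where 1.00% of all genes were overlapped. Both limits include that share, so 0 is near it. Neuronal and synaptic genes had 0 of 27 (up to 12.8%). The neuronal genes are long, with a median of 36.3 kb and 18 of 20 kb or more. Of all genes of 20 kb or more 15.6% were overlapped, and of these 18 neuronal genes 0. The limit of 12.8% is for all 27 and none was computed for the 18, so it cannot be set against the 15.6%. Where 60.4% of all protein-coding genes had a peak at an end, one lay at an end of 11 of 12 hemocyte marker genes and of 2 of 6 muscle, 4 of 6 neuron, 1 of 6 photoreceptor and 4 of 5 germline markers. With so few genes these counts do not separate the cell types.

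Genes for tRNAs were overlapped more often than other kinds of small RNA gene. Clusters overlapped 32 of 290 tRNA genes (11%), 8 of 260 miRNA genes (3.08%), 1 of 269 snoRNA genes (0.372%), 52 of 1995 lncRNA genes (2.61%), 13 of 503 antisense RNA genes (2.58%) and 0 of 308 pseudogenes (0.00%). The tRNA genes lay in only 8 clusters, since tRNA genes are themselves grouped: 9 were in an EcR cluster, 7 in a cluster with no protein-coding gene (2R 19725610 to 19729276) and 5 in 1 at 3R 17615246 to 17622534. In these 3 clusters 13 of 16, 16 of 17 and 8 of 14 members were within 250 bp of a gene end, and pileups ranged from 29 to 208, 32 to 198 and 34 to 197. Since tRNA genes are very short, any summit close to one is near a gene end by definition. The miRNA genes included mir-14, inside a cluster of 17 members (76 to 410), mir-275 and mir-305, inside one of 12 (60 to 201), and mir-92a.

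Some clusters lay outside protein-coding genes. Of the 381 clusters 52 overlapped no protein-coding gene and 37 no gene of any kind. As examples, near rpr, the cell death gene, 10 members lay 1638 bp from the gene with pileups from 74 to 408. Near ap, a LIM-homeobox gene, 15 members began 4932 bp away with pileups from 58 to 203. Near CG14506 13 members had pileups from 80 to 438, and near CG9932 15 members had 83 to 387. Distance to a gene does not show which gene such sites act on.

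The X chromosome had the largest share of members among the arms, although its sites were the sparsest of the large arms. Of its 5562 summits 585 were members (10.5%, 9.72 to 11.4%), against 2253 of 29602 on 2L, 2R, 3L and 3R together (7.61%, 7.31 to 7.92%), where the arms ranged from 7.29% to 7.95%. There were 23.6 summits per 100 kb on X and 26.2 to 28.7 on the 4 autosomal arms, and 3.23 clusters per Mb against 2.63 to 2.89. Members on X had a median pileup of 89 and background of 25.2, against 94.5 to 101 and 26.9 to 30.3 on those arms. Over all summits the order differed, with a median pileup of 60 on X against 53 to 59 and a median fold of 4.25 against 3.39 to 3.54. The small chromosome 4 had 6 members of 355 summits (1.69%, 0.623 to 3.64%) and Y 0 of 16. The copy number of the arms in these cells was not measured, and its part in these values was not tested.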

How the data were processed

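ATAC-seq was done on 2 libraries of S2 cells, and 1 peak list was deposited for both. The submitters' processing notes list Bowtie2, MACS2, deepTools and dm6, without versions or settings. Pooling, read filters, the transposase offset and the treatment of duplicates and repeated sequence are, in the sources used here, not given, and each can move or split a site. The depth of each library is unknown. As deposited by the authors, the fold is a ratio of summit pileup to local background, the −log10 p and −log10 q are the peak caller's, and the score, not used, is about 10 times the −log10 q. In 65 lines without a placed summit the interval's middle was used, and none was a member.

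The pileup and background were solved from fold and −log10 p under a Poisson upper tail (agreement within 0.001, largest residual 0.000521), and the procedure and the cluster search were tested on simulated data. Genes came from the RefSeq table of Release 6 plus ISO1 MT (13946 protein-coding genes, no strand), the assembly that dm6 names. Python 3.11.15, pandas 2.3.3 and scipy 1.17.1 were used. Shares carry exact (Clopper-Pearson) 95% intervals, which treat neighbouring sites and genes as independent. No test was made, because the list has no replicates and its own positions chose the members.

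The members and the 13 gene lists (3 listed genes had no match) were chosen with earlier results of these data known. Named were the 15 clusters with most members, those of highest fold and pileup and the longest, and the 2 leading genes of each list. Any other gene was named with its values known, the leading genes of the ribosomal list are not named here, and the planned display of promoters was not made for want of sequence. Alternatives were stricter peaks, 1 summit per interval, other counts, joining distances and gene-end windows, and, chosen after seeing the data, leaving out clusters of high background.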

Additional observations from a re-analysis of the deposited data

How the results depend on the processing

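No paired analysis was possible because 1 peak list serves both libraries, and for the same reason no library could be left out. Joining distances of 5 kb and 20 kb gave 395 and 361 clusters and changed no count by over 1.5 times. Membership depends strongly on weak and subdivided peaks. Every member under the first 3 settings below, and with 15 or more summits, was also a member as reported. At a −log10 q of at least 10 there were 513 members in 73 clusters over 64 genes, with 15.4% at gene ends, a median fold of 3.76, pileup of 196 and background of 52.6, and 71.5% in shared intervals. At or above the median fold there were 29 members in 4 clusters over 1 gene, with 48.3% at gene ends (40.4% of the others, so the direction turned, all from 2 tRNA clusters), a fold of 4.67, pileup of 71 and background of 17.5, and 82.8% in shared intervals. With 1 summit per interval there were 86 members in 32 clusters over 28 genes, with 26.7% at gene ends (31.9% of the others), a fold of 3.05, a background of 27 and 0% in shared intervals. With 10 or more summits there were 6246 members in 759 clusters over 953 genes, with 16.5% at gene ends, a fold of 3.36, pileup of 85 and background of 23.2, and 56.6% in shared intervals. With 15 or more there were 742 members in 112 clusters over 102 genes, with 12.4% at gene ends, a fold of 3.03, pileup of 114 and background of 38.9, and 71.2% in shared intervals. Gene-end windows of 100, 500 and 1000 bp gave 8.68%, 20.7% and 31.4% of members, against 20.8%, 41.5% and 52.5% of the others. Without the 41 clusters of high background the median pileup was 81 and the background 24.6, and the other results moved less than their interval or by under 1.5 times.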

Other observations

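Under the stricter settings different kinds of cluster were left. At a −log10 q of at least 10 the clusters with most members were those at Rh5 (28), tara (22), CHES-1-like (18) and psq (17), followed by the X cluster beside CG4004 (16) and by 15 members each at shn, Trl, a Tlk cluster, the gene-free 2L cluster and the tRNA cluster on 2R. At or above the median fold the 4 that were left were the gene-free 2L cluster (14 members), the tRNA clusters on 2R (12) and 3R (2), and spen (1). None of the large regulator clusters kept 12 such summits within 5 kb. This setting removes summits and keeps the count of 12, so it does not rank the clusters by fold. With 1 summit per interval the leading clusters were at Pfrx (8), CHES-1-like (7) and lola (6).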
